A study of Drosophila melanogaster with 14 samples.

Results

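The 41 genes described here lie on chromosome 4, the smallest chromosome of Drosophila melanogaster, and were followed in pupal indirect flight muscle (IFM) and larval wing disc. They were chosen by symbol from a list of chromosome 4 genes and not by a threshold on a measured value. The list was drawn up with earlier results of these data in view, among them the levels of CG1674 in Tet null and wild-type IFM, and for CG1674 these levels are therefore given as a description with no test. All 41 were found in both expression tables, 39 by symbol and 2 through a RefSeq synonym (Thd1 as Tdg and Arf102F as Arf4). They are 41 of the 114 chromosome 4 genes among 17890 genes in the IFM table, and 41 of 110 among 17490 genes in the wing disc table. In the annotation all 41 are protein-coding, as are 80 chromosome 4 genes of the IFM table in all. Why these were listed rather than the other protein-coding genes of the chromosome is not given in the sources used here.

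The study asked what the loss of Tet, the only fly gene of the Ten-Eleven Translocation dioxygenases, does to flight muscle development, and whether the enzyme's activity is needed. RNA-seq covered 14 samples. Of these, 8 were IFM dissected from pupae at 96 h after puparium formation (APF), 2 each of wild type (w1118), Tet null, Tet CD (a catalytic dead allele) and Tet-GFP (GFP knocked in at the Tet locus, the control line for Tet CD). The other 6 were wing discs of larvae of the third instar, 3 of Tet null and 3 of wild type. The Tet CD protein carries GFP as well, so Tet-GFP and Tet CD share the tag, which wild type and Tet null lack. Tet was removed or altered in the whole animal and not only in muscle. The samples include no wing discs of Tet CD or Tet-GFP.

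Chromosome 4 is unusual among the fly's chromosomes because its genes lie inside repeat-rich chromatin that carries heterochromatin marks. The heterochromatin protein HP1 and the histone methyltransferase Eggless (egg) mark it, and the product of Pof is a protein that binds the transcribed genes of this chromosome and raises their output. Despite this setting the chromosome holds genes for eye and wing patterning, Wnt and Hedgehog signalling, axon guidance, synapses and muscle.

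Levels are given as RPKM, read counts scaled to exon length and library size. The values of low genes are whole multiples of what 1 read is worth, which put the libraries at 35.7 to 49.1 M reads in IFM and 21.5 to 31.2 M in wing disc. Tet itself stood at 0.405 and 0.2195 RPKM in Tet null IFM and at 2.04 and 3.01 in wild type, and at 0.352 to 0.475 RPKM in Tet null discs against 147.8 to 204.6 in wild-type discs. The 6 flight muscle markers summed to 32990 to 43200 RPKM in every IFM library and to at most 86.3 RPKM in wing disc. Wild-type disc 2 stood apart: its lower quartile over all genes was 2.12 RPKM, against 0.0371 to 0.132 in the other 5 disc libraries, and odorant and gustatory receptor genes had a median of 2.12 RPKM there. It held 12 of the 41 genes at 1.60 to 5.40 RPKM, above each of the other 5 libraries, and 26 below each of them. The shares of all genes that were highest or lowest there were not computed, so these counts are not a trait of the 41 genes. The disc fold changes are therefore given with and without it, except where a gene was under the limit for testing without it. The labels do not say whether replicates came from separate collections, so the tests measure the spread between these samples, which may be partly technical.

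In wild type the 41 genes stood on different levels in the 2 tissues. Their median was 6.87 RPKM in IFM and 41.9 RPKM in wing disc without wild-type disc 2. The tissues were normalised in separate tables, so this is a comparison of levels with no test. Over all genes the library medians were also lower in wild-type IFM (0.363 and 0.306 RPKM) than in wild-type discs 1 and 3 (1.14 and 0.973 RPKM). The shares of all genes that go with the counts below were not computed. In the disc 28 genes were over 10 RPKM and in IFM 14. Without wild-type disc 2, 20 genes were over 4 times higher in disc and 5 were over 4 times higher in IFM. The 5 were CG1674, CG11155, yellow-h, Actbeta and Syt7, of which Actbeta and Syt7 had means under 1 RPKM in both tissues.

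CG1674, which encodes a constituent of the muscle Z-disc, was the highest of the 41 in IFM. It stood at 211.7 and 261.0 RPKM in wild-type IFM and at 3.002, 5.40 and 2.28 RPKM in the 3 wild-type discs. PMCA, the plasma membrane calcium pump, came next in IFM with 57.6 and 61.3 RPKM, and CaMKII, a calcium-dependent kinase of synapses and muscle, followed with 36.8 and 53.5 RPKM. These neighbours in the order did not overlap, whereas CG11155 (29.1 and 24.9 RPKM) and gw (23.9 and 28.3 RPKM) did. CG11155 encodes a predicted glutamate receptor subunit of the kainate type, and gw encodes GW182, a partner of Argonaute in silencing by microRNAs.

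The order in wing disc was another one. The adaptor gene Crk led with 176.1, 118.8 and 175.9 RPKM in wild-type discs 1, 2 and 3, against 7.90 and 8.33 RPKM in wild-type IFM. It was followed by ci, the transcription factor of Hedgehog signalling, at 144.7, 100.8 and 139.6 RPKM, and by zfh2, a wing hinge patterning factor, at 136.7, 97.5 and 130.7 RPKM. The ranges of these 3 genes overlapped through wild-type disc 2, and without it Crk was above the other 2. Then came gw with 96.0, 64.2 and 89.8 RPKM and PMCA with 80.1, 49.1 and 69.0 RPKM. In wild-type IFM zfh2 was at 2.098 and 1.61 RPKM, and without wild-type disc 2 its mean in disc was 72.1 times that in IFM. At the bottom, JYalpha, a subunit gene of the sodium-potassium pump, had 2 and 6 reads in wild-type IFM. The eye selector ey had 12 and 18 reads there.

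**Figure D1:**
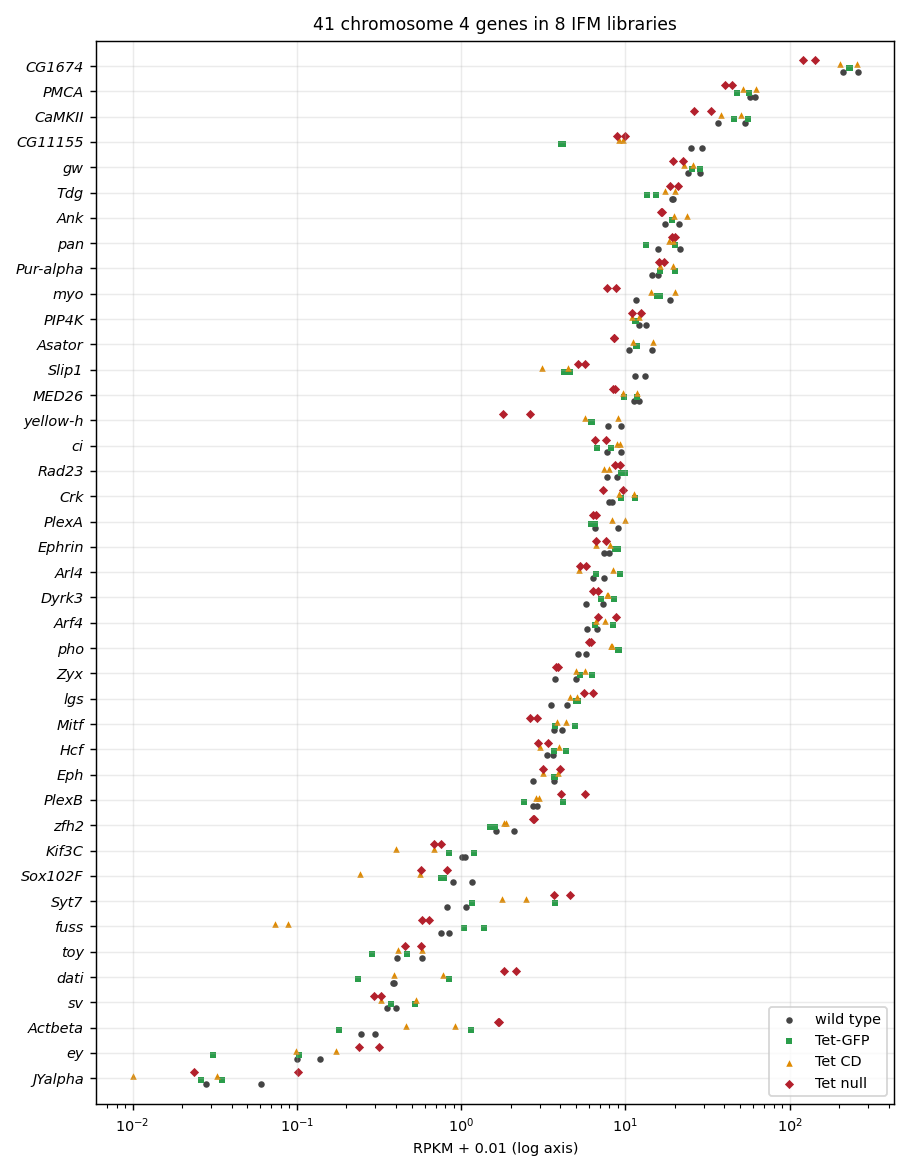
RPKM plus 0.01 on a log axis for each of the 41 genes in the 8 IFM libraries, ordered by the wild-type mean, with 1 symbol per library and colour by group. CG1674 leads in every library. The 2 Tet null libraries lie below the 6 others for 10 of 37 genes and above them for 4, against 16.9% and 18.2% of all 8344 genes of at least 0.5 RPKM. The 10 include yellow-h. CG1674 is also counted in them, although its levels in Tet null and wild type were in view when the list was drawn up.

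In Tet null IFM, yellow-h, CG11155 and Slip1 fell and Syt7, dati and Actbeta rose against wild type, 6 of the 37 genes tested. A gene was called at an adjusted p under 0.05 (Benjamini-Hochberg over all genes tested, limma) and a fold change over 1.5, on log2(RPKM + 0.5), a scale that understates changes of low genes. The 3 higher of 37 stand beside 5.5% of all 8466 genes tested, and the 3 lower beside 2.79%. Of the 3 higher, Syt7 alone reached the limit of 0.5 RPKM in both groups. The median log2 fold change was -0.16 over the 37 genes and -0.03 over all genes tested, with 22 genes negative and 15 positive. Groups did not overlap for 17 genes that were lower in Tet null and 9 that were higher, while over all genes tested 30.2% were lower and 29% higher without overlap. CG1674 is counted in the 22 and the 17, although its levels were in view when the list was drawn up. JYalpha, ey, sv and toy were under the mean of 0.5 RPKM that the test required. dati and Actbeta were under it in wild type and passed only through Tet null, where they are high, as did 1137 of all genes tested through 1 of the groups, so their calls add no support to the count.

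These 6 calls rest on 2 libraries a group. With any 1 of the 4 libraries left out, 0 of the members were called, though all 6 kept their direction, and 0 were called when genes of every level were tested. With all 4 IFM groups in 1 fit, yellow-h, CG11155 and Slip1 kept their call, and Syt7, dati and Actbeta lost it. With limma-voom on the reads recovered from the RPKM values, an alternative chosen after seeing the data, 6 members were called.

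yellow-h, of the Yellow family of secreted proteins, fell. It had 1.78 and 2.60 RPKM (125 and 192 reads) in Tet null IFM and 7.80 and 9.39 RPKM (445 and 505 reads) in wild type. The groups were apart and differed by -1.77 on the log2 scale (SE 0.25, limma adjusted p = 0.033). Tet CD had 5.63 and 8.96 RPKM and Tet-GFP 6.22 and 6.16 RPKM, all above both Tet null libraries. The gene lies at 4:227922-230428 on the plus strand (dm6 coordinates, BDGP6.54 annotation). An antisense RNA inside it, asRNA:CR46065, also fell, from 3.45 and 4.71 RPKM in wild type to 0.446 and 0.635 in Tet null (log2 fold change -2.13, SE 0.23, adjusted p = 0.026 from limma). The 2 share 182 exonic bases and whether reads were counted by strand is not given in the sources used here, so their reads cannot be told apart there.

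CG1674 is the next gene on that strand, at 4:230730-245903. Its levels were 142.3 and 120.9 RPKM in Tet null, 211.7 and 261.0 in wild type, 202.5 and 257.4 in Tet CD and 231.3 and 228.8 in Tet-GFP. Tet null was thus lowest, without overlap with any of the 6 other IFM libraries, and Tet CD and Tet-GFP overlapped. The log2 fold change of Tet null against wild type was -0.84 (SE 0.26), and against Tet-GFP it was -0.81 (SE 0.23).

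CG11155 and Slip1 were lower than wild type in Tet null, and they were low as well in Tet CD and Tet-GFP. CG11155 (4:1126602-1137919) was at 9.88 and 8.90 RPKM in Tet null and 29.1 and 24.9 in wild type. In Tet CD it was at 9.10 and 9.61 and in Tet-GFP at 4.16 and 4.03. Wild type was therefore highest and Tet-GFP lowest, with Tet null and Tet CD overlapping between them. Tet null differed from wild type by -1.47 on the log2 scale (SE 0.23, limma adjusted p = 0.037).

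Slip1, which encodes a binding partner of the Slowpoke potassium channel (4:663621-669884), had 5.11 and 5.63 RPKM in Tet null and 13.1 and 11.4 in wild type. It stood at 3.09 and 4.47 RPKM in Tet CD and at 4.22 and 4.61 in Tet-GFP. Wild type was above the 6 other IFM libraries, and Tet null was the next highest group. Tet null against wild type gave -1.11 (SE 0.21, adjusted p = 0.04999 from limma), at the threshold, and an adjusted p of 0.0783 with the replicate number as a block.

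Of the genes that rose, Syt7 encodes a synaptotagmin, a calcium sensor of vesicle release. It had 4.59 and 3.66 RPKM in Tet null, 0.812 and 1.07 in wild type, 2.47 and 1.77 in Tet CD and 1.16 and 3.73 in Tet-GFP. Tet null was above wild type and Tet CD, and overlapped with Tet-GFP. The log2 fold change against wild type was 1.68 (SE 0.21, adjusted p = 0.028 from limma).

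dati encodes a zinc finger transcription factor of the nervous system. Its levels were 2.15 and 1.81 RPKM in Tet null and 0.380 and 0.376 in wild type, with 0.767 and 0.378 in Tet CD and 0.227 and 0.835 in Tet-GFP. Tet null was above all other IFM libraries, and the log2 fold change against wild type was 1.49 (SE 0.19), given as a description since the gene was tested only because of its level in Tet null.

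Actbeta encodes the TGF-beta family ligand Activin-beta, made by neurons among other cells. It was at 1.68 and 1.70 RPKM (287 and 306 reads) in Tet null and at 0.287 and 0.236 RPKM (40 and 31 reads) in wild type. Tet CD had 0.907 and 0.450 RPKM and Tet-GFP 0.169 and 1.13 RPKM, again below both Tet null libraries. Its log2 fold change against wild type was 1.52 (SE 0.19), a description for the same reason as for dati.

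Markers of neurons moved with these 3 genes. Of the 8 neuronal markers 7 were called higher in Tet null IFM against wild type, the exception being elav, at 1.32 to 2.09 RPKM in all IFM libraries. Their sum was 73.8 and 66.0 RPKM in Tet null and 11.3 and 10.8 in wild type. In Tet CD it was 32.8 and 19.8 RPKM, and in Tet-GFP it was 9.92 and 29.5 RPKM in the order used for the genes above. The Tet CD and Tet-GFP libraries with the higher sum were also those with the higher dati and Actbeta. Glial markers summed to 184 and 118 RPKM in Tet null and 39.6 to 71.6 in the others, with 1 of 4 called. The part of these cell types in the 3 rises was not tested, and in bulk tissue more cells of a type and more RNA per cell cannot be told apart. The marker lists were chosen with earlier results of these data known, so their counts are a description.

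**Figure D2:**
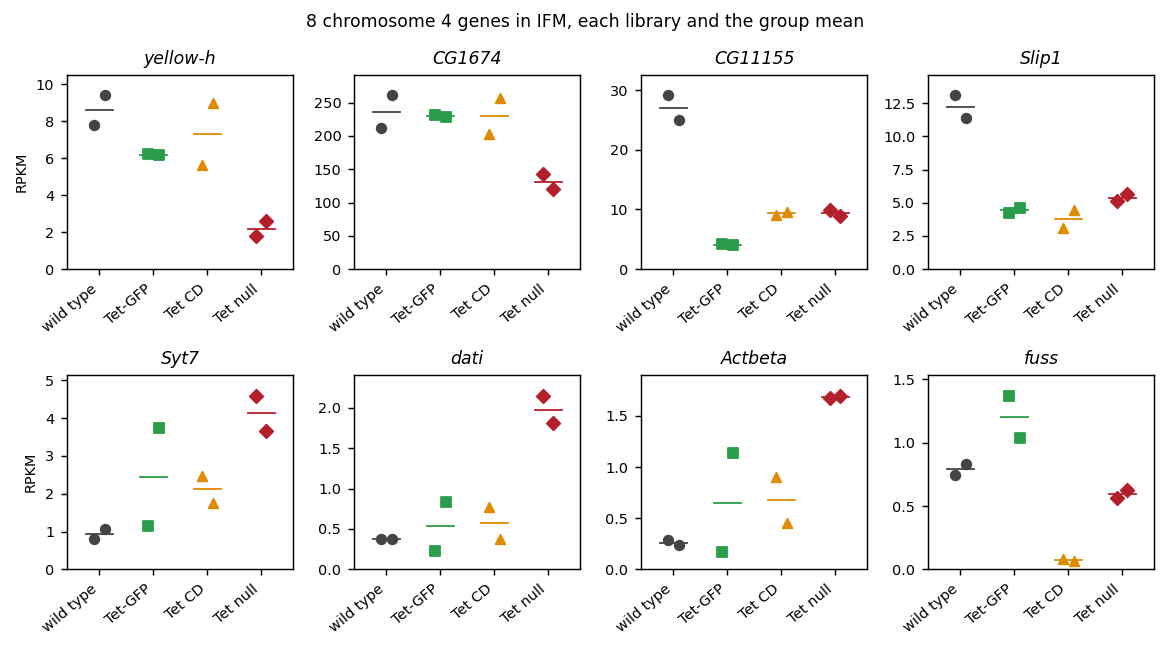
RPKM on a linear axis in each IFM library for 8 chromosome 4 genes, with points for libraries and bars for group means of 2. yellow-h and CG1674 are low in Tet null only, CG11155 and Slip1 are high in wild type only, and fuss is at 0.0788 and 0.0634 RPKM in Tet CD.

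By role, the 9 genes of muscle, synapse, ion transport and adhesion had 8 tested, with a median log2 fold change of -0.35 in Tet null against wild type, 1 called higher (Syt7) and 1 lower (CG11155). CG1674 is among the 8, although its levels were in view when the list was drawn up, so this median is a description. CaMKII was at 33.4 and 25.97 RPKM in Tet null and 36.8 and 53.5 in wild type, and PMCA at 44.5 and 40.5 against 57.6 and 61.3. Neither passed the test, with log2 fold changes of -0.58 (SE 0.30) and -0.48 (SE 0.23), although their groups did not overlap. Zyx, a zyxin of focal adhesions, Ank, an ankyrin, and Crk lay between -0.21 and 0.05. Of the PMCA exons 40.5% are shared with Rnf11 on the opposite strand.

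Among kinases, GTPases, motors and others, 8 of 8 were tested and 2 called lower, yellow-h and Slip1. The others ran from -0.51 for Asator, a tau tubulin kinase, to 0.28 for Arf4, a small GTPase. Between them lay Arl4, another small GTPase (-0.29), the kinesin gene Kif3C (-0.33), the lipid kinase PIP4K (-0.12) and the kinase Dyrk3 (0.03).

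The 11 developmental transcription factors had 8 tested, with a median of -0.07. The 1 called, dati, passed the limit of 0.5 RPKM only through Tet null. lgs, the Legless cofactor of Wnt signalling, had 5.57 and 6.37 RPKM in Tet null against 3.52 and 4.42 in wild type (log2 fold change 0.54, SE 0.22). Its DNA-binding partner pan, the fly TCF, overlapped between the groups (0.08, SE 0.25). ci (-0.25), the lysosomal regulator Mitf (-0.42), Sox102F (-0.36), fuss (-0.23) and zfh2 (0.47) did not pass the test.

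The 7 genes for chromatin, transcription and RNA factors were all tested and 0 were called, with log2 fold changes from -0.43 to 0.14. The lowest was MED26, a Mediator subunit. The others were the Polycomb recruiter pho (0.14), Hcf (-0.13), Rad23 (0.10), Pur-alpha (0.13), gw (-0.31) and Tdg, the thymine DNA glycosylase Thd1 (0.03). The 6 guidance and growth signals ran from -0.80 (myo) to 1.52 (Actbeta, over the limit of 0.5 RPKM only in Tet null). myo, the TGF-beta ligand myoglianin made by muscle and glia, was at 7.72 and 8.75 RPKM in Tet null and 11.5 and 18.7 in wild type (-0.80, SE 0.31). The semaphorin receptor PlexB had 5.63 and 4.04 RPKM against 2.71 and 2.87 (0.68, SE 0.23). Neither passed the test, nor did PlexA (-0.23), Ephrin (-0.11) and its receptor Eph (0.14).

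The 51 other chromosome 4 genes tested gave 6 called higher and 6 lower, with a median of -0.19. Those higher were Gat, mGluR, onecut, Cadps, CG1909 and asRNA:CR44030, and those lower were NfI, CG33978, RhoGAP102A and 3 non-coding genes, lncRNA:CR45123, lncRNA:CR45200 and asRNA:CR46065. Of these, mGluR, onecut, asRNA:CR44030 and lncRNA:CR45123 were over the limit of 0.5 RPKM in 1 group only. Gat, a GABA transporter of glia, was at 20.7 and 12.9 RPKM in Tet null, 3.01 and 3.97 in wild type, 16.9 and 4.45 in Tet CD and 0.994 and 23.6 in Tet-GFP, so that its highest value was in Tet-GFP. NfI, a transcription factor, was at 35.7 and 29.5 RPKM in Tet null and 91.4 and 80.9 in wild type, with Tet CD and Tet-GFP between 34.9 and 45.8. On the other chromosomes the medians ran from -0.06 (3L) to -0.02 (X).

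Genes listed as regulators of chromosome 4 chromatin were themselves measured, and whether each acts on this chromosome was not tested. Of 12 regulators, Pof, egg and G9a among them, 10 were tested in Tet null against wild-type IFM and 0 were called, with log2 fold changes from -0.36 (egg) to 0.47 (G9a). Their sum was 12.9 and 13.3 RPKM in Tet null and 13.6 to 17.0 in the other IFM libraries, against 467.3 to 731.8 in wing discs, so most stood near 1 RPKM in IFM.

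Tet null was also compared with Tet-GFP, to give the differences against the other control line. This comparison shares the Tet null libraries with the preceding one. limma called 1 of 8369 genes higher (0.0119%) and 0 lower (0%), and 0 of the 37 members. Of all genes tested 2230 had an unadjusted p under 0.05, and of the 37 members 10 did. CG1674 is among the 10, although its Tet null levels were in view when the list was drawn up. Tet itself was not called (log2 fold change -2.42, SE 0.195, adjusted p = 0.097 from limma). The lack of calls therefore cannot decide whether the differences depend on the control line. With all 4 IFM groups in 1 fit, 277 genes were called, CG11155 being the only member.

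The largest differences were in yellow-h (-1.33, SE 0.22), dati (1.33, SE 0.35), CG11155 (1.10, SE 0.19), Actbeta (1.06, SE 0.47) and myo (-0.91, SE 0.20), all on the log2 scale and none past the threshold. myo was at 15.7 and 16.1 RPKM in Tet-GFP and at 14.3 and 20.0 in Tet CD, above both Tet null libraries. CG11155 thus stood higher in Tet null than in Tet-GFP and lower than in wild type. Slip1 had 0.26 (SE 0.18) against Tet-GFP. The median over the 37 genes was -0.21 and over all genes tested -0.04. No overlap was seen for 19 genes that were lower and 7 that were higher, while over all genes tested 33% and 30.1% did so. The 19 include CG1674, whose Tet null levels were in view when the list was drawn up.

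**Figure D3:**
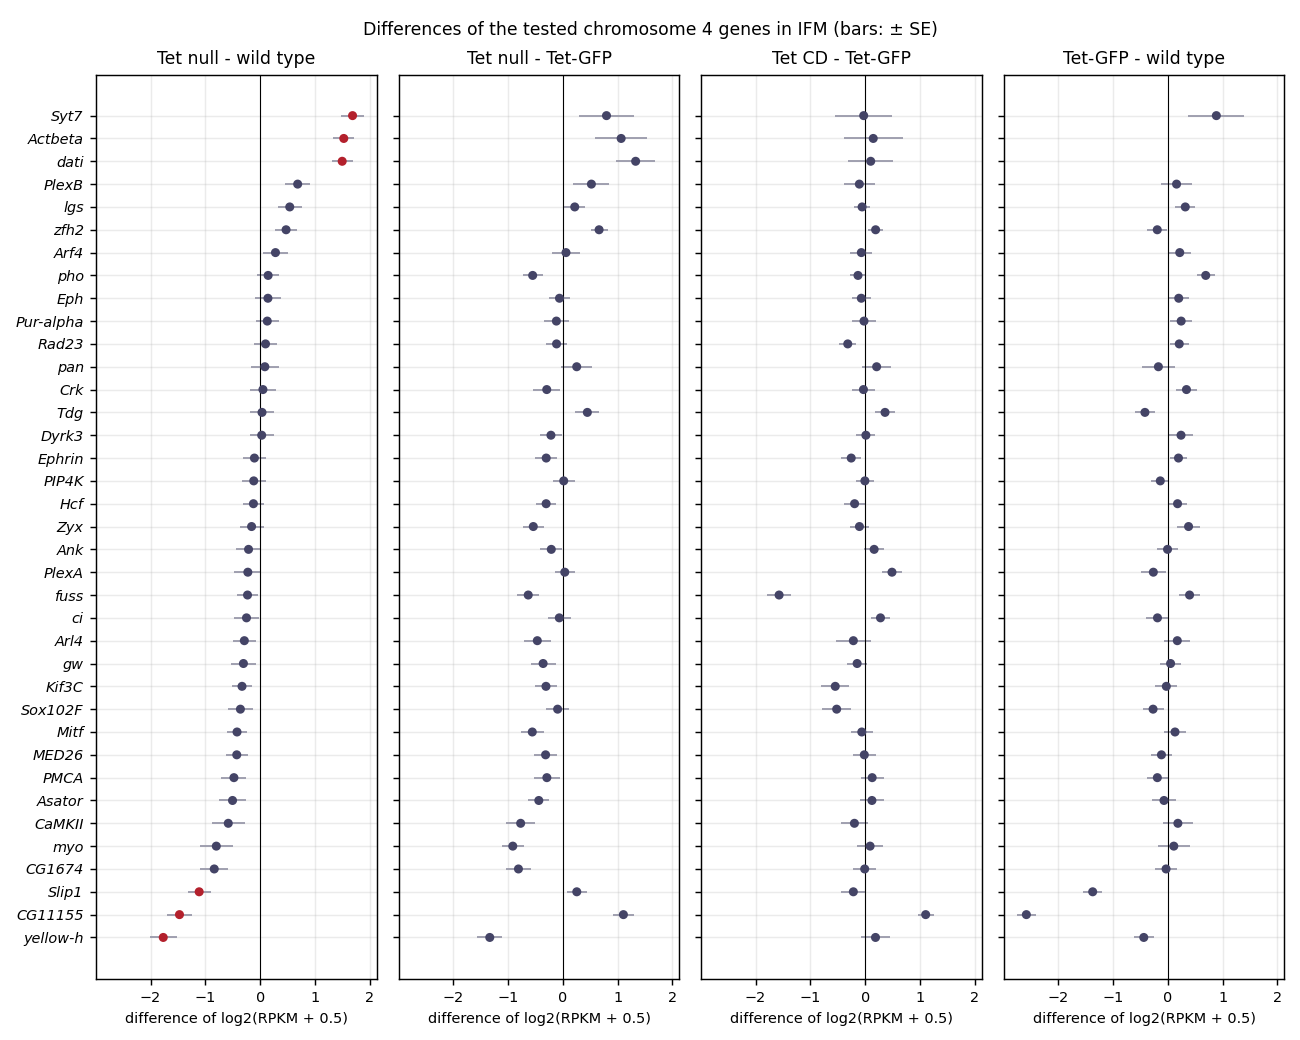
Difference of log2(RPKM + 0.5) with its SE for the genes tested in 4 comparisons of IFM groups, in 1 gene order, with called genes in red. yellow-h, CG1674 and myo lie below 0 in both Tet null panels, whereas CG11155 lies below 0 against wild type and above 0 against Tet-GFP.

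The 2 control lines were compared with each other. limma called 0 of 8156 genes (0% higher and 0% lower) in Tet-GFP against wild type, with 843 genes under an unadjusted p of 0.05, and 0 of the 35 members tested, 3 of them under 0.05. limma-voom also called 0 members. The 3 were CG11155 (-2.58, SE 0.18), Slip1 (-1.37, SE 0.18) and pho (0.69, SE 0.16). With all 4 IFM groups in 1 fit CG11155 was called, with an adjusted p of 0.019 from limma and the same log2 fold change.

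pho was at 9.15 and 8.996 RPKM in Tet-GFP, 8.18 and 8.28 in Tet CD, 6.14 and 5.95 in Tet null and 5.13 and 5.75 in wild type. The 2 GFP-tagged lines were thus above the others, without overlap. Syt7 followed with 0.89 (SE 0.51), where the Tet-GFP libraries differed from each other, and yellow-h with -0.44 (SE 0.18). CG1674 differed by -0.03 (SE 0.20). The median was 0.11 over the 35 genes and -0.02 over all genes tested. It ran from -0.01 to 0.18 over 12 alternatives, the lowest without wild type 1, and was 0.05 without the second Tet-GFP library named above.

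Tet CD against Tet-GFP asks what the loss of catalytic activity alone does. limma called 0 of 8141 genes (0% higher, 0% lower) and 0 of the 37 members. The study, with DESeq2 on counts and the same limits on adjusted p and fold, reported a small number of genes in both directions. The 0 calls here, on 2 libraries a group, therefore do not show that nothing changed. Of all genes 494 had an unadjusted p under 0.05, and of the members 2 did, fuss and CG11155, of which fuss was over the limit of 0.5 RPKM only in Tet-GFP. limma-voom called 0 members too. The median log2 fold change was -0.03 over the members and -0.01 over all genes.

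fuss, a Ski/Sno family cofactor, was at 0.0788 and 0.0634 RPKM in Tet CD, which were 14 and 10 reads. In Tet-GFP it was at 1.37 and 1.04 RPKM (197 and 155 reads), in wild type at 0.744 and 0.835 and in Tet null at 0.565 and 0.629. Tet CD was below all other IFM libraries. The log2 fold change against Tet-GFP was -1.57 (SE 0.22), and with limma-voom on reads it was -4.01. It was not called under any alternative tried, and it was tested only because of its level in Tet-GFP, so these values are a description.

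At one end of fuss lies asRNA:CR44030, on the opposite strand (4:959675-962692 against 4:962341-978489 for fuss), with 299 exonic bases in common. It was listed at 0 in both wild-type and both Tet CD IFM libraries, and stood at 1.76 and 1.92 RPKM in Tet null and 2.03 and 2.58 in Tet-GFP. Tet null discs had 2.16, 2.54 and 2.04 RPKM, and wild-type discs 0.185, 1.81 and 0.588.

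CG11155 was at 9.10 and 9.61 RPKM in Tet CD against 4.16 and 4.03 in Tet-GFP (1.10, SE 0.15, adjusted p = 0.33 from limma). PlexA had 8.27 and 9.87 RPKM against 6.13 and 6.49 (0.49, SE 0.17). Kif3C stood at 0.392 and 0.674 RPKM against 0.829 and 1.18 (-0.55, SE 0.25), and Sox102F, over the limit only in Tet-GFP, at 0.232 and 0.550 against 0.741 and 0.775 (-0.52, SE 0.26). All 4 had groups apart, and none passed the test. For yellow-h (0.19, SE 0.27), CG1674 (-0.01, SE 0.21), CaMKII (-0.20, SE 0.25) and myo (0.09, SE 0.23), Tet CD and Tet-GFP overlapped.

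The Tet null effect (against wild type) and the Tet CD effect (against Tet-GFP) were set against each other in 1 contrast over the 8 IFM libraries. limma called 19 of 8344 genes with a higher Tet null effect (0.228%) and 38 with a lower one (0.455%), among them 1 of the 37 members, CG11155. Its difference was -2.57 on the log2 scale (SE 0.23, adjusted p = 0.027), and with each of 8 libraries left out in turn it ran from -2.68 to -2.46, with adjusted p from 0.0315 to 0.105. The call held without the first Tet CD library only. Tet null and Tet CD overlapped and nearly cancel in this contrast. Its size is thus almost wholly the gap between the 2 control lines given above (-2.58, SE 0.18). yellow-h (-1.96, SE 0.38) and fuss (1.34, SE 0.26) both had an adjusted p of 0.088 from limma. For Syt7 (1.71, SE 0.61), dati (1.40, SE 0.47) and Actbeta (1.38, SE 0.61) the adjusted p was 0.21 to 0.29.

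**Figure D4:**
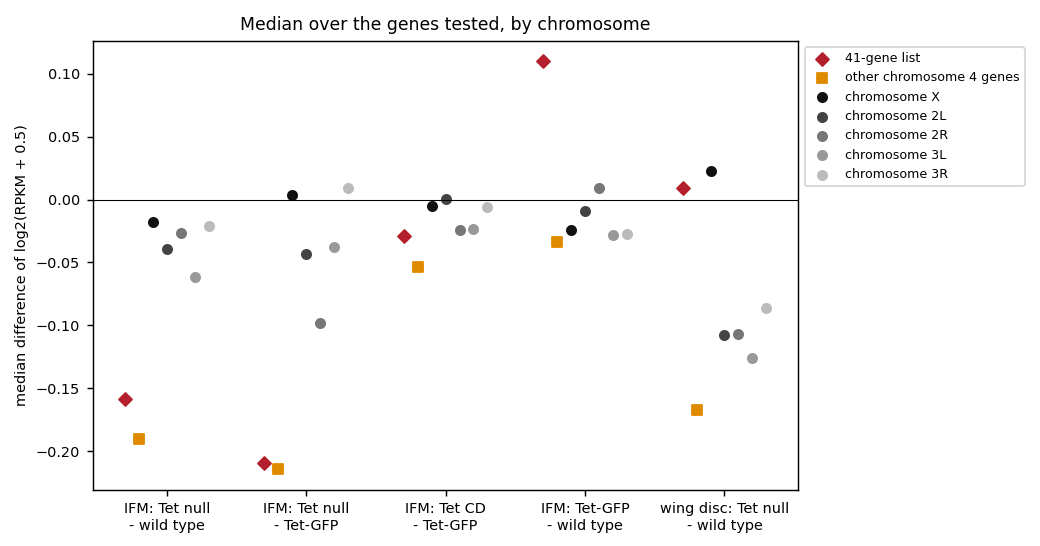
Median difference of log2(RPKM + 0.5) over the genes tested, for the listed genes (red), the other chromosome 4 genes (orange) and each other chromosome (grey), in 5 comparisons. Both chromosome 4 sets have medians between -0.21 and -0.16 in the 2 comparisons with Tet null IFM, where the other chromosomes lie between -0.10 and 0.01.

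By level, in Tet null against wild-type IFM the median log2 fold change of the members was -0.23 for 5 genes with a mean of 0.5 to 2 RPKM, 0.03 for 19 genes of 2 to 10 RPKM, -0.31 for 11 genes of 10 to 50 RPKM and -0.66 for the 2 genes over 50 RPKM. The last pair is PMCA and CG1674, and the levels of CG1674 were in view when the list was drawn up. Over all genes tested the medians in the same bins were 0.00, -0.03, -0.05 and -0.21. In the 13 alternative settings the median of the members ran from -0.23 to -0.08 and stayed below that of all genes, by 0.08 to 0.20. Against Tet-GFP it ran from -0.23 to -0.12, again below all genes in each of 12 settings. These are descriptions of 2 lists, with no test.

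In the wing disc, most of the 38 genes tested overlapped between genotypes, whereas 4 (CG11155, CG1674, Kif3C and Sox102F) stood lower and 2 (Asator and lgs) higher in Tet null without overlap. Over all genes tested 12.5% were lower and 13% higher in this way. limma called 0 of the 38 members tested, where 1.67% of 12631 genes were called higher and 2.48% lower. An unadjusted p under 0.05 was found for 3 members and for 2238 of all genes tested. With the replicate number as a block, 1 member, CG1674, was called, and with limma-voom on recovered reads 1, CG11155. The median log2 fold change was 0.01 over the 38 genes and -0.08 over all genes, with 19 positive and 19 negative. Without wild-type disc 2 it was -0.11 over 33 members and 0.02 over all genes, and 0 members were called.

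CG1674 had 1.09, 1.82 and 1.96 RPKM in Tet null discs (141, 192 and 268 reads) and 3.002, 5.40 and 2.28 RPKM in wild type (283, 537 and 226 reads). The groups did not overlap, with or without wild-type disc 2. Its log2 fold change was -0.89 (SE 0.30, adjusted p = 0.10 from limma). With the replicate number as a block the adjusted p was 0.014, and without wild-type disc 2 the difference was -0.58 with an adjusted p of 0.26. Without wild-type disc 3, the lowest of the wild-type libraries, it was -1.12 with an adjusted p of 0.034 from limma, and CG1674 was called. All 6 levels are far below those of the muscle.

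CG11155 was at 0.359, 0.557 and 0.394 RPKM in Tet null discs (68, 86 and 79 reads) and 1.61, 2.62 and 1.20 in wild type (222, 381 and 174 reads), again without overlap. The log2 fold change was -1.26 (SE 0.47, adjusted p = 0.15 from limma), for a gene over the limit of 0.5 RPKM only in wild type. Without wild-type disc 2 it was -1.02 (SE 0.27, adjusted p = 0.10), and with limma-voom it was -2.03 (adjusted p = 0.032). Subtraction of the receptor gene level from each library, another alternative added after seeing the data, gave -0.78 (adjusted p = 0.41).

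Markers moved in the disc as well: 2 of 5 markers of adult muscle precursors were called lower and 4 of 4 fat body markers higher in Tet null, and without wild-type disc 2 these were 2 of 5 and 1 of 4. The precursor sum was 44.7 to 51.4 RPKM in Tet null and 64.9 to 93.1 in wild type, and the fat body sum 133.3 to 205.3 against 24.6 to 66.6. Their part in the levels of CG1674 and CG11155 was not tested. The 2 precursor markers called, twi and Him, are also reported as lower in the study. The marker lists were chosen with earlier results of these data known, so the counts are a description.

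yellow-h (0.158, 0.580 and 0.106 RPKM against 0.526, 2.32 and 0.853) and ey (0.137, 0.302 and 0.120 against 0.275, 3.26 and 0.214) had log2 fold changes of -1.06 and -0.91. Kif3C (0.380, 0.560 and 0.212 against 0.850, 1.68 and 0.677) had -0.79. These 3 genes were over the limit of 0.5 RPKM only in wild type. In all 3 the highest value came from wild-type disc 2. Of these, Kif3C alone had groups apart, also without that library, when its log2 fold change was -0.53 (adjusted p = 0.36 from limma), and yellow-h and ey then overlapped.

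**Figure D5:**
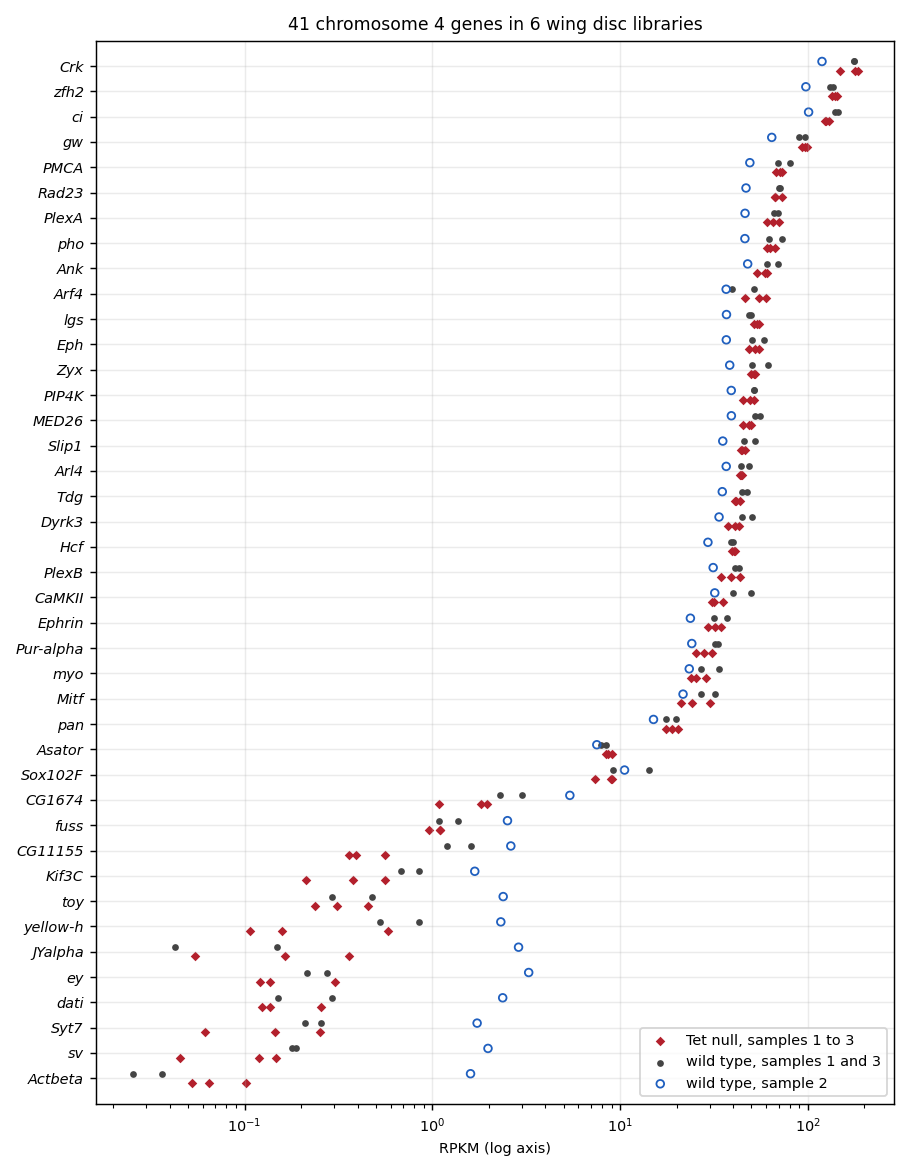
RPKM on a log axis for the 41 genes in 6 wing disc libraries, ordered by the Tet null mean, with Tet null in red, wild type 1 and 3 in grey and wild type 2 as open circles. Wild-type disc 2 lies to the right of the other libraries for the 12 lowest genes and to the left for 26 others, and the remaining libraries lie close together above 10 RPKM.

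The genes highest in the disc did not pass the test. Crk had 185.0, 147.7 and 178.0 RPKM in Tet null discs (log2 fold change 0.13, SE 0.20), ci had 124.6, 129.0 and 123.5 (-0.01, SE 0.19) and zfh2 had 142.6, 134.7 and 139.9 (0.21, SE 0.18). For gw, at 98.3, 93.5 and 96.0 RPKM, it was 0.22 (SE 0.18), and for PMCA, at 71.0, 72.8 and 67.7 RPKM, 0.12 (SE 0.18). Compared with wild-type discs 1 and 3 alone, the 3 Tet null libraries were lower for ci (-0.18, SE 0.07) and overlapped for the others. The log2 fold changes were then -0.05 for Crk, 0.06 for zfh2, 0.05 for gw and -0.08 for PMCA, so that those of Crk and PMCA changed sign, and none passed the test. Slip1 differed by 0.04 (SE 0.17) in disc, with 46.4, 44.2 and 44.6 RPKM in Tet null and 52.3, 35.2 and 45.5 in wild type, and by -0.11 (SE 0.09) without wild-type disc 2.

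Without wild-type disc 2, 11 of 33 members tested were lower and 2 higher in Tet null with no overlap. Over all 9724 genes tested then, 19% were lower and 21.1% higher in this way. Those lower included Sox102F, CaMKII, Pur-alpha, MED26, Tdg, Dyrk3 and PIP4K, and those higher were lgs and Asator. The 12 genes listed as chromosome 4 chromatin regulators had 0 called in disc, with log2 fold changes from 0.05 to 0.37, and from -0.13 to 0.22 without wild-type disc 2. Of the 52 other chromosome 4 genes tested, 1 was called higher, apolpp, a lipoprotein precursor made in fat body, and 4 lower, Cadps, CG31999, lncRNA:CR44441 and unc-13. Without wild-type disc 2 the 4 were called again, and apolpp was at 1.65 with an adjusted p of 0.056 from limma. Cadps, a regulator of dense-core vesicles, was at 1.21, 1.88 and 1.08 RPKM in Tet null discs and 5.26, 8.99 and 5.04 in wild type, and fell in disc (-1.85, SE 0.26, adjusted p = 8.2e-05 from limma, and -1.60 without wild-type disc 2), while it rose in IFM (1.57, SE 0.20, adjusted p = 0.029).

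Some values carry a counting limit. Of the 41 genes, 13 share exonic bases with another gene of the tables, among them zfh2 and Tdg with each other, fuss, PMCA, yellow-h and CG11155, and strand use in counting is not given. Wing disc values of genes under 1 RPKM rest on few reads, for example 5 to 29 for yellow-h outside wild-type disc 2.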

How the data were processed

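Total RNA from dissected IFM or wing discs was made into libraries with the Ovation SoLo kit. The authors trimmed the reads, used Hisat2 for alignment to dm6 and HTSeq-count for counting, and deposited RPKM, in 1 table for IFM and 1 for wing disc. The submitters' notes name HISAT2 2.1.0, HTSeq 0.11.2 and DESeq2 1.22.2. 1 of the Tet null IFM samples is labelled as disc tissue, but its title, age and table are those of IFM. Tet CD and Tet-GFP columns were tied to groups only.

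The values were tested with limma 3.58.1 (R 4.3.3; lmFit, eBayes with trend) on log2(RPKM + 0.5), for genes with a mean of at least 0.5 RPKM in the libraries compared, with Benjamini-Hochberg adjustment over all genes. Genes were called at adjusted p under 0.05 and a fold over 1.5 (for the contrast of effects, adjusted p alone). The procedure was also run on simulated data with a fixed change and independent noise. That run cannot show how it does on smaller changes or with a library that deviates over all genes. Multiplying RPKM by exonic length and library scale gave whole reads, within 0.05, for 100% of values under 300 reads in IFM and 98.1 to 98.5% in disc. DESeq2 was not used here, since the deposited tables are not counts. Gene positions and lengths come from the BDGP6.54 annotation, which held 17850 of 17890 IFM genes and 17216 of 17490 disc genes.

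The members, role groups and marker lists were chosen with earlier results of these data known. All 41 members could be named. Values in every sample are given for members called, the 5 largest differences of each comparison, the 5 highest in wild type of each tissue and CG1674, and a few others were added after their values were seen. Other chromosome 4 genes were named only where called.

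Samples with the same replicate number in the titles were checked as pairs by the rule that every same-numbered pair correlates above 0.1. In wing disc the deviations from group means correlated at 0.176, 0.303 and 0.155, which meets this rule. The main fits held no pairing, and the replicate number entered as a block in an alternative only. Tet null 1 correlated as highly (0.191) with wild-type disc 3, so these values do not settle whether the samples are pairs. In IFM the 2 Tet null and wild-type pairs correlated at 0.0864, and the Tet CD and Tet-GFP columns of the same column number, which is not a label number, at 0.475. With 2 libraries a group both pairs have the same value by construction. Alternatives were other pseudocounts, median-ratio scaling, a higher or no limit on low values, a fit with no eBayes trend, 1 fit for all IFM groups, the replicate block, leaving out each library, and, added after seeing the data, limma-voom on recovered reads and subtraction of the receptor gene level.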

Additional observations from a re-analysis of the deposited data

Results flagged for a closer look

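In CG11155 the effect of Tet null in IFM differed from that of Tet CD, by -2.57 on the log2 scale (SE 0.23, adjusted p = 0.027 over 8344 genes from limma). It was flagged because the difference itself passed the test, though the call depended on the libraries included, as given above. Tet null and Tet CD overlapped, so the size is almost wholly the gap between Tet-GFP and wild type (-2.58, SE 0.18). The 4 group means were 27.0 ± 2.96 RPKM in wild type, 9.39 ± 0.696 in Tet null, 9.36 ± 0.364 in Tet CD and 4.09 ± 0.0956 in Tet-GFP (SD, n = 2 each).

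Asator went in opposite directions in the tissues, with each Tet null IFM library below both wild-type libraries (8.55 and 8.51 against 10.5 and 14.4 RPKM) and each Tet null disc above all wild-type discs (8.46, 9.05 and 8.65 against 8.39, 7.51 and 7.95 RPKM). The log2 fold changes differ by -0.63 (IFM minus disc). This difference was not tested, because the tissues were normalised in separate tables, and neither change passed its own test. Groups of 2 and 3 samples are too small for a check of single outlying values. For ci, pho and Ank the Tet null and Tet CD effects in IFM had opposite signs in all libraries, and the tested differences of -0.53, 0.28 and -0.38 did not pass (adjusted p = 0.34, 0.52 and 0.48 from limma).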

How the results depend on the processing

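Of the values for named genes under the alternatives, 363 kept direction and call, 44 lost the call, 5 gained it and 3 reversed. The reversals were all in CG1674 near 0: Tet CD against Tet-GFP without 1 Tet CD library (-0.18 to 0.16), and Tet-GFP against wild type with median-ratio scaling (0.015) and without 1 wild-type library (-0.18 to 0.12). The cause was not tested. In Tet null against wild-type IFM, 6 members and 702 genes were called; with no limit on low values these were 0 and 92, with all 4 IFM groups in 1 fit 3 members, and without 1 library 0 members and 0 to 47 genes. The 2 IFM pairs share only a number: with the replicate block 4 members were called, Slip1 (adjusted p = 0.0783) and CG11155 (0.053) being lost, and Slip1 also missed the threshold with a pseudocount of 0.1 (0.0534) or 1 (0.0504). With all 4 IFM groups in 1 fit, Tet-GFP against wild type gave 1 member and 15 genes, Tet null against Tet-GFP 1 member and 277 genes, and Tet CD against Tet-GFP 17 genes. Without 1 library, Tet null against Tet-GFP gave 0 to 254 genes, and with no limit or with limma-voom 0. In wing disc 524 genes were called: 1 member and 936 genes with the replicate block, 1 member and 201 genes with limma-voom, 0 to 1 member without 1 library (289 genes without wild type 2, 918 without wild type 3), 174 genes with no limit, 34 without a trend and 300 with receptor subtraction. The contrast of effects gave 0 to 1 member and 0 to 128 genes without 1 library, against 57 with all. Columns of Tet CD and Tet-GFP carry no label numbers; with their column number as a block, chosen after seeing the data, 0 members were called.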
